A study of Mus musculus with 6 samples.

Results

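Complex I of the mitochondrial respiratory chain is encoded by a large set of nuclear genes whose symbols start with Nduf, and this account describes the Runx1 peaks at those genes in mouse lung fibroblasts. The rule took every RefSeq protein-coding gene of build mm10 (GRCm38.p6) with such a symbol, and it found 49 genes among 21883 protein-coding genes on chromosomes 1 to 19, X and Y. A gene was counted as having a peak when a called peak lay in the gene or within 1 kb of it. The rule uses gene symbols alone. Chromatin immunoprecipitation and sequencing (ChIP-seq) of Runx1, a DNA-binding transcription factor, was done on GFP+ fibroblasts from lungs of Col1a2-CreERT2;mTmG mice in all groups. In these mice a Cre recombinase driven by the collagen gene Col1a2 switches cells from a red to a green reporter, so the sorted cells are those in which that driver was active. The groups were sham injury, 14 days after intratracheal bleomycin (D14) and 56 days after it (D56), each with 1 Runx1 library and 1 input library. The sources used here give no age, sex or number of mice for a library. With 1 library per condition there is no replicate check and no p-value between conditions. The 95% intervals after a share are by Wilson's method and reflect counting error alone.

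Complex I, NADH:ubiquinone oxidoreductase, takes electrons from NADH, passes them to ubiquinone and pumps protons across the inner mitochondrial membrane. Its core subunits carry the flavin and the iron-sulphur clusters or form the membrane pump, the accessory subunits surround and stabilise them, and the Ndufaf proteins help to assemble the complex without staying in it. The pump subunits are encoded by mitochondrial DNA and are not among the 49 genes. Complex I genes are active in nearly all cells, and regulation of such genes is textbook ground for NRF1, ETS-family factors and YY1. RUNX proteins bind the sequence TGTGGT.

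The sequences below give the start regions that the results turn on, from 250 bases before to 30 after the gene start as listed in the RefSeq promoter table of build GRCm38.p6, each read 5′ to 3′ on the gene's strand. Capitals mark exact matches, on either strand, to 4 motifs: RUNX (TGTGGT, or ACCACA on the other strand), ETS (CCGGAAG or CTTCCGG), the palindromic NRF1 site (the 10 capitals in the Ndufaf5 sequence) and YY1 (AAGATGGC or GCCATCTT). No capitalised matches overlapped each other. Ndufb5 (chr3:32736813-32737092, plus strand) had the highest peak of the set at D14 and at D56. Ndufaf8 (chr11:120098684-120098963, plus strand) holds an ETS and a YY1 match. Ndufs7 (chr10:80249199-80249478, plus strand) holds 3 RUNX matches, the most in the set. Ndufab1 (chr7:122101819-122102098, minus strand) and Ndufaf5 (chr2:140170396-140170675, plus strand) had peaks at D14 and D56 and none in sham. Ndufc2 (chr7:97399753-97400032, plus strand) had the lowest of the strongest D14 peaks. Ndufaf1 (chr2:119662805-119663084, minus strand) had no peak in any library.
Ndufb5: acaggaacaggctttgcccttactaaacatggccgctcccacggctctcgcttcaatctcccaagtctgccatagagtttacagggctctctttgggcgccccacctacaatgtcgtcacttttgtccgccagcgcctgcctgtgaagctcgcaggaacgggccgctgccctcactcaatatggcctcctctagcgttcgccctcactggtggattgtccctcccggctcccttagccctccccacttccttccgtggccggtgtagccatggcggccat
Ndufaf8: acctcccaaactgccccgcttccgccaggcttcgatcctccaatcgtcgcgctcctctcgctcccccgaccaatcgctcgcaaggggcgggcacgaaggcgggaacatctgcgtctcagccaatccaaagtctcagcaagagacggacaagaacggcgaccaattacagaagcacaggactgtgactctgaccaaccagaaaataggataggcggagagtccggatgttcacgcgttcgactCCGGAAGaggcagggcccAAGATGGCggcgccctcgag
Ndufs7: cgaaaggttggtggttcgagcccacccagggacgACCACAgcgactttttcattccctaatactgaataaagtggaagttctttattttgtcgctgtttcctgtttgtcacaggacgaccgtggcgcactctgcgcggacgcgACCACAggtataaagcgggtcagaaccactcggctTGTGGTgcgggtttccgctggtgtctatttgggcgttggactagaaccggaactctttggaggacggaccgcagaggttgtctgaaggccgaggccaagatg
Ndufab1: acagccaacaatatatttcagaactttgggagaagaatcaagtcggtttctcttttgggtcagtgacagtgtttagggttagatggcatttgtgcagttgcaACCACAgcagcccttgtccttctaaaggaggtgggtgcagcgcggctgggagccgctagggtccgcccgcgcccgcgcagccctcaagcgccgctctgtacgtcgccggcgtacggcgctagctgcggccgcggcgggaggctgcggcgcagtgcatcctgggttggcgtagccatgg
Ndufaf5: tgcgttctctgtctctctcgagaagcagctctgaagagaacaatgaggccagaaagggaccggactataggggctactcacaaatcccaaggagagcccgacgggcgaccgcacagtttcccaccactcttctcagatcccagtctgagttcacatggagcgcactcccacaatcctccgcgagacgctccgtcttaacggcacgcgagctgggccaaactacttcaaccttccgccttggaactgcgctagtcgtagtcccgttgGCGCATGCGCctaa
Ndufc2: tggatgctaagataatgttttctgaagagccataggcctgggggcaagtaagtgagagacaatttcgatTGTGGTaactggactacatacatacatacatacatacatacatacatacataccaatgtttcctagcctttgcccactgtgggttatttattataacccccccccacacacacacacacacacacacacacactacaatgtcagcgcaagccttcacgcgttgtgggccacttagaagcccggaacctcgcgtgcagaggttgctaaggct
Ndufaf1: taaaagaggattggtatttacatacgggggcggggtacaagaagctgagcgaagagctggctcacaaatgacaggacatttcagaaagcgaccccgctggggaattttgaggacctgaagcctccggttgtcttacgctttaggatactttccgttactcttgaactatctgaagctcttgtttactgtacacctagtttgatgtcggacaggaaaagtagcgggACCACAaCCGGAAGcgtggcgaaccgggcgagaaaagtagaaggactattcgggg

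Runx1 peaks were called at most complex I genes in each library. In sham 41 of the 49 genes had a peak (83.7%, 71.0 to 91.5), against 53.6% of all protein-coding genes. At D14 the count was 46 (93.9%, 83.5 to 97.9), against 66.7% of all genes. At D56 it was 39 (79.6%, 66.4 to 88.5), against 46.7%. The 3 lists differ in length, with 25052 (sham), 56316 (D14) and 15009 (D56) peaks, and so does the ChIP depth, with 48816721, 78744701 and 49669125 tags. When each list was limited to its 15009 strongest peaks by −log10 p, the counts were 33 in sham, 42 at D14 and 39 at D56, against 45.3%, 49.6% and 46.7% of all genes. At equal list length the sham count thus lay below the D56 count, the reverse of the order in the full lists. Sorted cells were analysed in bulk, so binding in more cells and stronger binding per cell cannot be told apart.

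Complex I genes are short, with a median length of 7690 bp against 17200 bp for all protein-coding genes, and short genes offer less room for a peak. Among genes of up to 20 kb, 33 of 40 complex I genes had a peak in sham, 37 at D14 and 32 at D56, against 42.1%, 52.7% and 36.9% of all protein-coding genes of that length. In 37 of the 49 genes a peak was called in all 3 libraries (75.5%, 61.9 to 85.4), against 46.1% of all genes. Another 4 genes had peaks in sham and D14 and none at D56 (background 7.40%), 3 had a peak at D14 alone (12.6%), and 2 had peaks at D14 and D56 and none in sham (0.576%). The remaining 3 had none in any library, against 33.2% of all genes. No complex I gene had a sham peak without also having one at D14, the longest list. This held for most sham peaks in general. Of all sham peaks 91.7% overlapped a D14 peak, and of those within 1 kb of a gene start 98.0%.

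**Figure D1:**
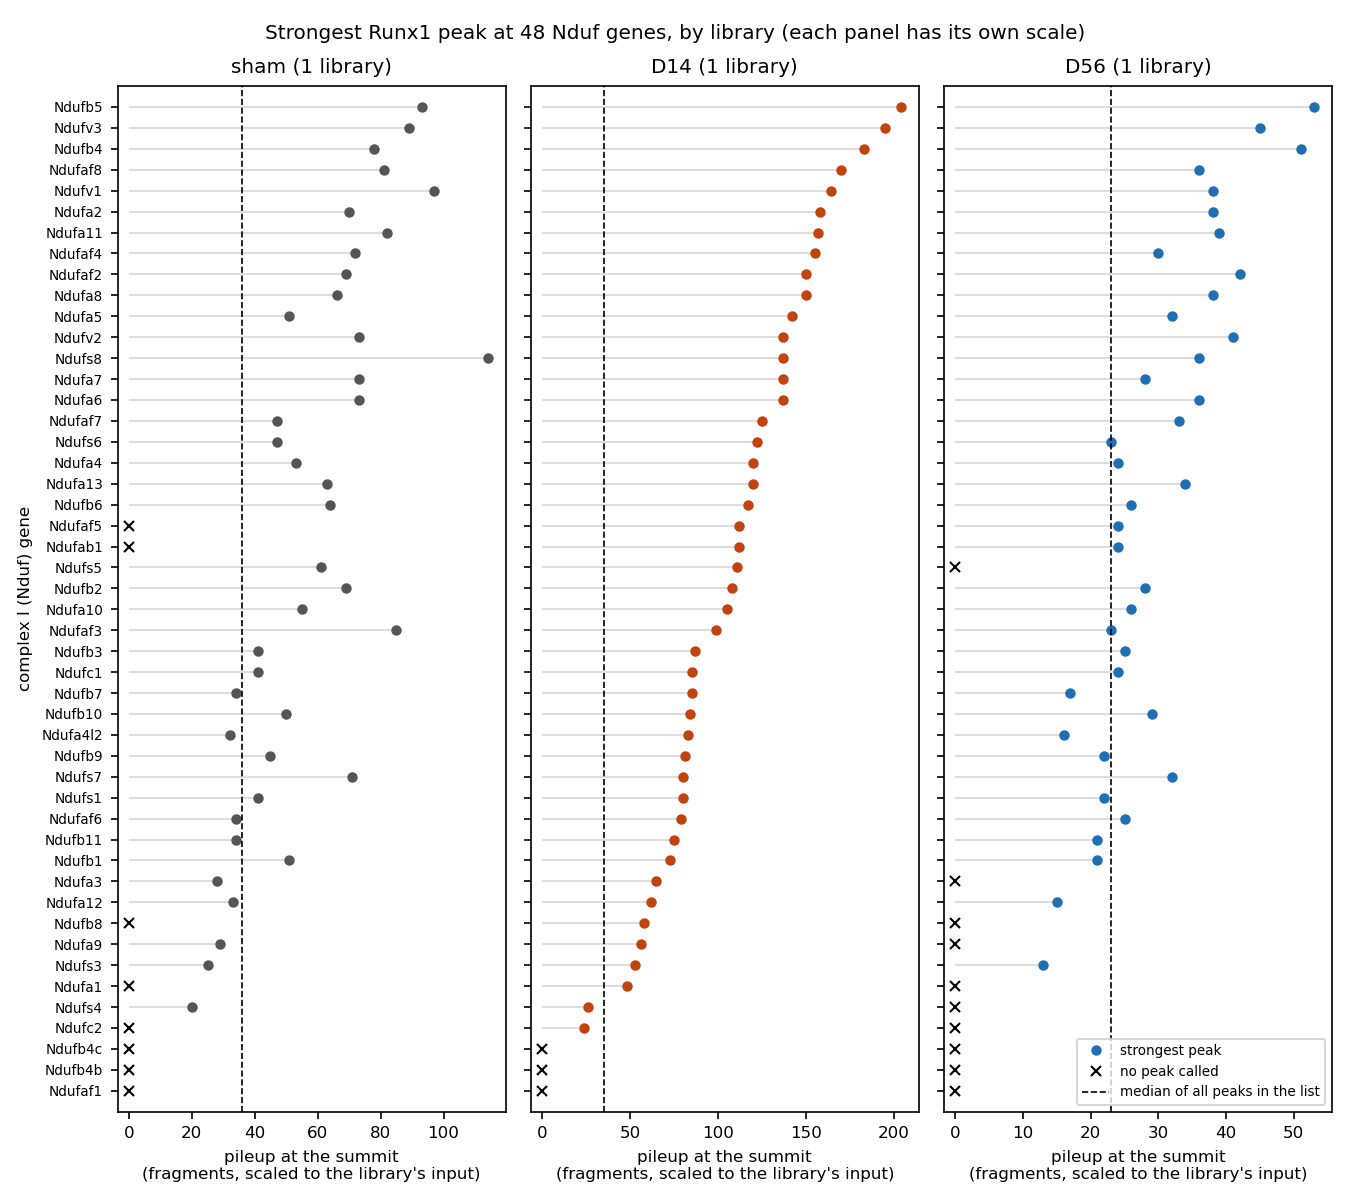
Pileup (stacked ChIP fragments at the summit, scaled by the caller to the depth of the library's input) of the strongest Runx1 peak at 48 of the 49 Nduf genes in sham, D14 and D56, 1 library each, with crosses for genes without a called peak and a dashed line at the median of all peaks in that list. The genes are ordered by their D14 value, from Ndufb5 at 204 to Ndufc2 at 24, and the 3 panels have separate scales.

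Most of the peaks sat at gene starts. The promoter table gives a strand for 42 of the 49 genes. Of the 40 genes with a D14 peak and a known strand, 32 had the summit of their strongest peak within 100 bp of the annotated start (80.0%) and 37 within 250 bp (92.5%). Over all protein-coding genes with a D14 peak and a known strand these shares were 44.0% and 56.4%. Genes without a strand are left out on both sides, and the shares were not matched for gene length. The median position at D14 was 32.5 bp upstream of the start, with 30 summits upstream and 10 downstream. In sham 31 of 35 and at D56 29 of 33 summits lay within 250 bp. The 300-base promoter window itself was met by a sham peak in 34 of 42 genes (81.0%), by a D14 peak in 40 (95.2%) and by a D56 peak in 31 (73.8%), against 44.0%, 53.7% and 38.6% of all protein-coding promoters.

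**Figure D2:**
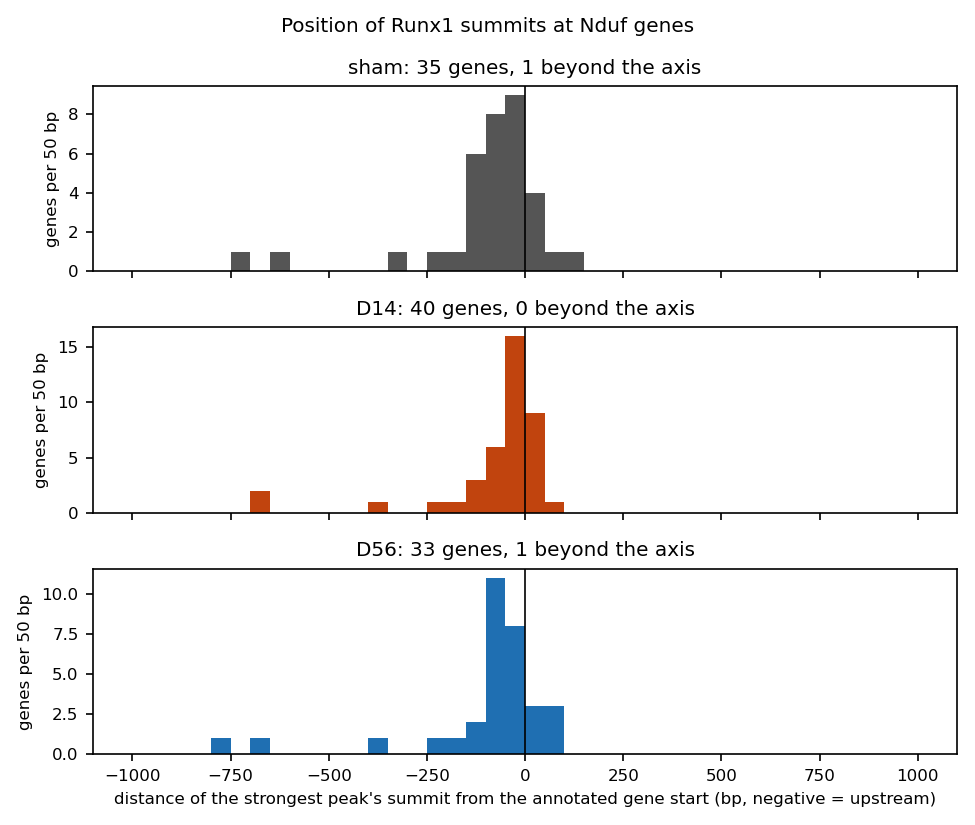
Number of Nduf genes per 50 bp of distance between the summit of the strongest peak and the annotated gene start, in sham (35 genes), D14 (40) and D56 (33), with negative distances upstream. Most summits lie just upstream of the start, with a median of -60 bp in sham, -32.5 bp at D14 and -57 bp at D56; the Ndufb6 summit in sham and at D56 lies beyond the axis.

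The position of these peaks hardly moved between libraries. In 36 genes the strongest peak was in the same merged region in all 3 libraries, and sham and D14 summits there differed by a median of 26 bp (1 to 127). Sham and D56 summits differed by a median of 25.5 bp (0 to 94). The exception among the 37 genes called in every library was Ndufb6, an accessory subunit of the membrane arm. It had a start peak and a peak just beyond the far end of the gene in every library. In sham the far peak, 9597 bp downstream of the start, had a pileup of 64 and the start peak 55. At D14 the start peak, at 117, was slightly above the far one at 113. At D56 both had a pileup of 26, and the far one, 9608 bp downstream, was taken as strongest by its higher fold. Ndufa13, an accessory subunit also known as GRIM-19, had its strongest summit at -744 bp from the annotated start in sham, -688 bp at D14 and -753 bp at D56 (negative values are upstream), within 1 kb of the neighbouring Tssk6, and a second peak inside the gene in each library. Ndufa11 likewise had its strongest summit at -641 bp in sham, -673 bp at D14 and -678 bp at D56, near Vmac. A weaker peak at its start had a pileup of 57 at D14 and 16 at D56. In sham the only peak (17:56716723 to 56717901) reached across the start.

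Many complex I starts lie close to another gene. The strongest D14 peak also met another protein-coding gene or its 1 kb flank in 24 of 46 genes (52.2%), against 24.2% of all protein-coding genes with a D14 peak. Such peaks cannot be given to 1 gene. Mitochondrial ribosome genes are among the partners, Mrpl47 beside Ndufb5 and Mrpl36 beside Ndufs6, and so are Rps28 beside Ndufa7, a gene of the cytosolic ribosome, and Eef1b2, a translation elongation factor gene, beside Ndufs1. Others are the DNA repair gene Ercc8 beside Ndufaf2, the polyadenylation factor gene Cpsf2 beside Ndufb1, Cebpz beside Ndufaf7, Wdr4 beside Ndufv3, and Rbm10 beside Ndufb11. Giving each peak only to the protein-coding gene with the nearest annotated end lowered the counts to 29 in sham (59.2%, 45.2 to 71.8), 36 at D14 (73.5%, 59.7 to 83.8) and 29 at D56 (59.2%, 45.2 to 71.8). Under the same assignment 48.6%, 62.7% and 41.5% of all protein-coding genes had a peak, so the complex I shares lay nearer to the background, and in sham and at D14 their intervals included it. In all 3 libraries the count was then 25 (51.0%, 37.5 to 64.4), against 40.0%, which that interval also includes.

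The 7 nuclear-encoded core subunits hold the flavin and iron-sulphur clusters and the quinone site. A peak was called in all 3 libraries in 7 of their 7 genes (100%, 64.6 to 100), against 46.1% of all protein-coding genes. That interval overlaps the one of the accessory subunits (73.3%, 55.6 to 85.8). The strongest peaks of the core genes had a median pileup of 73 in sham (25 to 114), 132 at D14 (53 to 164) and 36 at D56 (13 to 44). A pileup is scaled within its own library, so these values are set against their own list by percentile, the share of the list's peaks with a lower or equal pileup, ties sharing their mean rank. The core medians were at percentile 86.2 in sham, 93.9 at D14 and 80.9 at D56. Over all protein-coding genes with a peak the median percentile was 75.3, 86.7 and 67.5. Ndufs8, an iron-sulphur subunit of the arm that reaches the quinone, had the highest sham pileup of all 49 genes, 114 (19:3912474 to 3913176), with 137 at D14 and 36 at D56. Its peak also met the window of Aldh3b1. Ndufv1, the flavin-carrying subunit that binds NADH, had 97 in sham (19:4012543 to 4013046), 164 at D14 and 38 at D56. Both therefore stood high in sham already. Ndufv2, the partner of Ndufv1, had 73, 137 and 41. Ndufs1, the largest subunit of the NADH-oxidising arm, was lower, with 41, 80 and 22. Ndufs3 was the weakest of the 7, at 25 in sham (2:90904568 to 90904745), 53 at D14 and 13 at D56, the lowest D56 value of any complex I gene with a peak. Its window is shared with Kbtbd4.

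Ndufs7, a core subunit with an iron-sulphur cluster next to the quinone site, had its summit at the start in each library. The sham pileup was 71 (10:80248892 to 80249524), the D14 value 80 and the D56 value 32. Ranked over the regions called in all 3 libraries, described below, it stood at percentile 72.8 (sham), 37.1 (D14) and 71.6 (D56). Its D14 minus sham difference of -35.8 points was the lowest among 36 complex I genes. Its start region, shown above, holds RUNX matches that begin at -216, -107 and -72 from the start in the promoter table, which lies 344 bp from the start in the gene table. The D14 summit was 25 bp downstream of the gene-table start.

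All 30 accessory subunit genes had a peak at D14, 26 in sham and 23 at D56. Their strongest peaks had a median pileup of 53 in sham (20 to 93), 106 at D14 (24 to 204) and 28 at D56 (15 to 53). These stood at median percentiles of 72.4, 89.9 and 65.3, below the all-gene values in sham and at D56 and above at D14. Ndufb5, a subunit of the membrane arm, had 93 in sham (3:32736650 to 32737159), 204 at D14 and 53 at D56, at percentiles 93.7, 99.3 and 96.4. It was the highest complex I gene at D14 and D56 and came after Ndufs8 and Ndufv1 in sham. The start region of Ndufb5 shown above has none of the 4 motifs, and its peak meets the Mrpl47 window. Ndufv3, an accessory subunit of the NADH-binding arm, had 89 in sham, 195 at D14 (17:31519713 to 31520311) and 45 at D56. Ndufb4, another membrane-arm subunit, had 78 in sham, 183 at D14 (16:37654046 to 37654662) and 51 at D56. The same 3 genes led both injured libraries. Their D14 percentiles were 99.3, 99.0 and 98.5, so few D14 peaks anywhere were higher.

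In 9 further accessory subunits, from Ndufa2 to Ndufb10 in the order given here, the values lay above the list medians of 36, 35 and 23, except that Ndufs6 equalled the median at D56. Ndufa2 had pileups of 70, 158 and 38 (sham, D14, D56), Ndufa8 66, 150 and 38, and Ndufa6 73, 137 and 36. Ndufa7 had 73, 137 and 28, and Ndufa5 51, 142 and 32. These sit on the matrix arm or at its joint with the membrane arm, except Ndufa8, which faces the intermembrane space. Ndufa10 (55, 105, 26), Ndufb2 (69, 108, 28), Ndufs6 (47, 122, 23) and Ndufb10 (50, 84, 29) followed. Ndufb3 (41, 87, 25) and Ndufc1 (41, 85, 24) also lay above all 3 medians. Below the D56 median were Ndufb9 (45, 81, 22), Ndufb1 (51, 73, 21), Ndufb7 (34, 85, 17) and the X-linked Ndufb11 (34, 75, 21). Ndufa12 had 33, 62 and 15 (D56 peak 10:94198877 to 94199055), the lowest value at D56 after that of Ndufs3.

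Of the accessory subunits, 8 lacked a call in 1 or both of sham and D56. Ndufs4, which is needed for a stable NADH-binding arm, had the lowest sham peak of the set, 20 (13:114387876 to 114388066), 26 at D14 (13:114387819 to 114388169) and none at D56. Ndufa3 had 28 in sham (7:3617168 to 3617446), 65 at D14 and none at D56, and Ndufa9 had 29, 56 and none. All 3 lay below the sham median of 36, while at D14 only Ndufs4 lay below the list median of 35. Ndufs5 was different, with 61 in sham (4:123718089 to 123718446) and 111 at D14, percentiles 79.1 and 90.7, and no peak at D56. Of the 5250 D14 peaks with a pileup of 111 or more, 48 had no D56 overlap (0.914%, 0.69 to 1.21), and of the 5326 sham peaks with 61 or more, 39 had none (0.732%). The Ndufs5 peak is in both groups by construction, because the cutoffs are its own pileups. These shares are therefore no test of Ndufs5.

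Accessory subunits called at D14 alone were Ndufa1, Ndufb8 and Ndufc2. The X-linked Ndufa1 had a D14 pileup of 48 (X:37191008 to 37191357, shared with Rnf113a1). Ndufb8, whose protein is widely used as a readout of assembled complex I, had 58 (19:44555168 to 44555571). Ndufc2 had 24 (7:97399950 to 97400186), at percentile 23.7 of the D14 list and below its median pileup of 35. All 3 values were among the 6 lowest of the 46 D14 values, although Ndufb8 was at percentile 74.3 and Ndufa1 at 67.4 of all D14 peaks.

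Ndufab1, the mitochondrial acyl carrier protein that also serves fatty acid and lipoate synthesis, had a D14 pileup of 112 (7:122101516 to 122102155), a D56 pileup of 24 (7:122101820 to 122101984) and no peak in sham. The assembly factor gene Ndufaf5, whose product modifies the Ndufs7 protein, showed the same pattern, with 112 at D14 (2:140170423 to 140170811), 24 at D56 (2:140170515 to 140170752) and none in sham. The D14 and D56 summits lay 48 and 43 bp upstream of the Ndufab1 start and 54 and 65 bp downstream of the Ndufaf5 start in the gene table. Of the 5196 D14 peaks with a pileup of 112 or more, 16 had no sham overlap (0.308%, 0.19 to 0.5), and 2 of these 16 were the Ndufab1 and Ndufaf5 peaks. The cutoff is the pileup of these 2 peaks, which were singled out for lacking a sham call. This share therefore describes peaks of that height and is no test of the 2 genes. The Ndufab1 start region holds 1 RUNX match, at -148, and the Ndufaf5 region an NRF1 match beginning 17 bases after the promoter-table start. The Ndufaf5 peak also met the window of Esf1, a ribosome biogenesis gene. The sham list, with 25052 peaks, was shorter than the D14 list (56316) and longer than the D56 list (15009), in which both peaks were called. An absent call is not an absence of binding, and the reason for the absent sham calls was not tested.

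Of the 8 assembly factor genes, 6 had a sham peak, and 7 had a peak in each of the injured libraries. Their median pileup was 70.5 in sham (34 to 85), 125 at D14 (79 to 170) and 30 at D56 (23 to 42), at median percentiles of 84.8, 93.0 and 69.6. Ndufaf8, the partner of Ndufaf5, was highest at D14 with 81, 170 and 36 (sham, D14, D56), and shares its window with Tepsin. Ndufaf4, which works with Ndufaf3 on the quinone arm, had 72, 155 and 30. Ndufaf2, an assembly chaperone of the NADH-binding arm, had 69, 150 and 42, and Ndufaf7, a methyltransferase, had 47, 125 and 33. Ndufaf6 had 34, 79 and 25. Ndufaf3 had 85 in sham (9:108566631 to 108567866), 99 at D14 and 23 at D56, and so the highest sham and lowest D56 value of the group. Its window is shared with Dalrd3. Ndufaf1, which helps to build the membrane arm, (2:119655446 to 119662839) had no peak in any library. Its start region holds a RUNX match at -25 and an ETS match at -18.

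The last 4 genes bear the name without being regular complex I parts. Ndufa4, whose protein is now placed in complex IV, had pileups of 53, 120 and 24 (sham, D14, D56), and its peak met the Phf14 window. Its paralogue Ndufa4l2, a hypoxia-induced gene, had 32, 83 and 16 (D56 peak 10:127512858 to 127513069), inside the gene and 3750 bp from the nearer annotated end at D14. It had 2 further D14 peaks, with pileups of 27 and 31. Ndufb4b (19:25033108 to 25033578) and Ndufb4c (15:73809449 to 73809933), named after Ndufb4 and only 471 and 485 bp long, had no peak in any library.

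Over all 46 genes with a D14 peak, the strongest peak had a median percentile of 90.8 (84.6 to 93.9), close to the 86.7 of all protein-coding genes with a peak. In sham the median was 79.1 (66.4 to 85.1) against 75.3, and at D56 65.3 (54.5 to 80.9) against 67.5. Complex I genes were therefore called in a larger share than all genes when any overlapping window counts, while the height of their peaks lay near that of other genes with a peak. Other peaks at the 49 genes were few. Beside the strongest one there were 6 in sham, 14 at D14 and 3 at D56, with median pileups of 29.5, 30 and 26.

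The percentiles above cannot be compared across lists of different length, so the ranks were also taken over the 13733 regions called in all 3 libraries. Among the 36 genes with their strongest peak in 1 such region, 28 ranked higher at D14 than in sham and 8 lower. The median difference was 8.91 percentile points (quartiles 2.3 and 14.7). Over all 13733 regions the share ranking higher was 52.7% and the median difference 0.936 points, and over the 7647 of them within 1 kb of a gene start 62.4% and 4.11 points. Gene-start regions thus moved in the same direction, by less, and whether the 36 genes differ from them was not tested. With ranks by fold enrichment in place of pileup, 23 of 36 ranked higher at D14 (median 6.85 points), and with ranks by −log10 p, 26 (7.05). Over all shared regions the shares were 50.5% by fold (median 0.328 points) and 51.8% by −log10 p (0.735).

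The largest upward differences at D14 were those of Ndufa5 (percentile 47.5 in sham, 79.9 at D14 and 71.6 at D56), Ndufaf7 (40.8, 71.4, 73.7) and Ndufs6 (40.8, 69.6, 47.8). The largest downward ones were those of Ndufs7 (72.8, 37.1, 71.6), Ndufaf3 (83.9, 53.4, 47.8) and Ndufs8 (95.7, 77.7, 79.2). Ndufs7 was back near its sham rank at D56 and Ndufaf3 was not. Each of these is a single pair of libraries with no measure of its spread. At D56, 26 of 36 ranked higher than in sham (median 5.69 points), against 52.3% of all shared regions (0.597) and 58.7% of those near gene starts (2.24). By fold enrichment the count was 18 of 36 (median 0.0218 points) and by −log10 p 21 (0.73). Over all shared regions 51.3% ranked higher by fold (median 0.732 points) and 52.3% by −log10 p (0.899). By these 2 rankings the medians of the 36 genes thus lay below those of all shared regions. Between D14 and D56, 18 of 36 ranked higher at D56 by pileup (median 0.233 points), 15 by fold enrichment (-4.49) and 14 by −log10 p (-4.56), against 50.4%, 51.4% and 51.0% of all shared regions. Of the shared regions near gene starts, 45.6% ranked higher at D56 than at D14 by pileup (median -1.08 points). All 3 comparisons share their libraries.

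**Figure D3:**
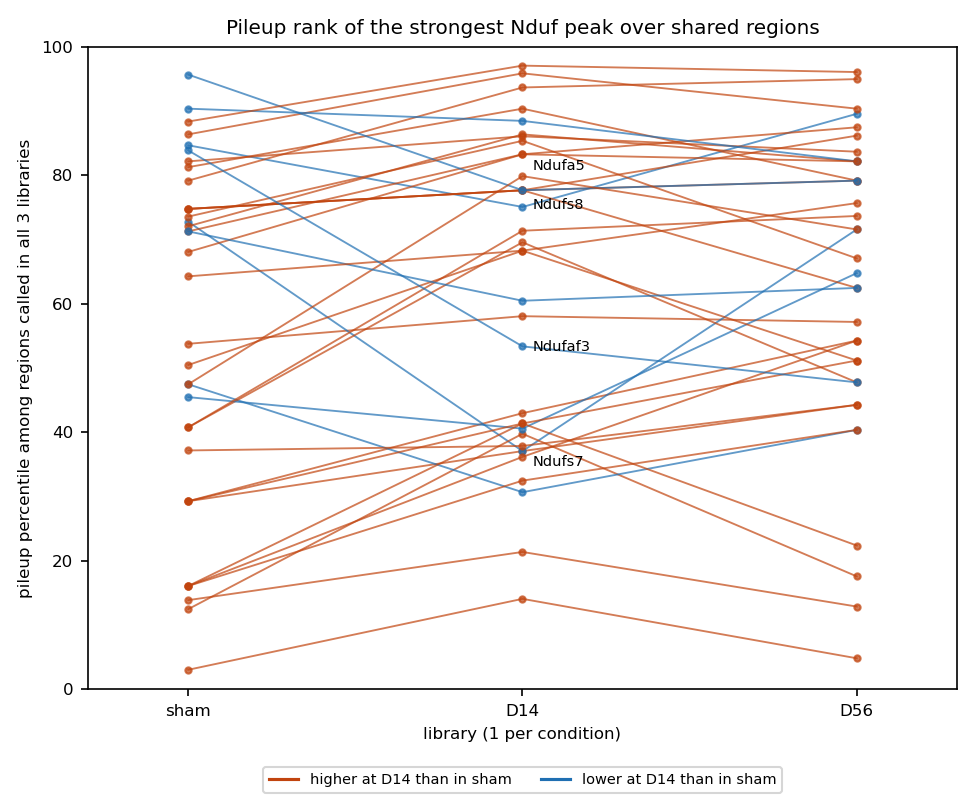
Percentile of pileup among the 13733 regions called in all 3 libraries, for the strongest peak of each of 36 Nduf genes in sham, D14 and D56, with 1 line per gene, coloured by whether the D14 value lies above or below the sham value. Most lines go up from sham to D14 (28 of 36), while Ndufs7, Ndufaf3 and Ndufs8 go down, with D14 minus sham differences of -35.8, -30.5 and -18.0 points.

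D14 peaks at complex I genes recurred in the other libraries in a larger share than D14 peaks in general. Their share was nearer to that of D14 peaks at gene starts. Of the 60 D14 peaks at these genes, 47 shared at least 1 bp with a sham peak (78.3%, 66.4 to 86.9), against 41.1% of all D14 peaks and 69.5% of D14 peaks within 1 kb of a gene start. A D56 peak was met by 42 of the 60 (70.0%, 57.5 to 80.1), against 25.6% and 57.7%. That share was 38.3% when the overlap had to cover 50% of both peaks. All 42 D56 peaks at these genes overlapped a D14 peak, and 40 overlapped a sham peak (95.2%). Both shares were near those of all D56 peaks, 99.4% and 96.4%. Of the 14 weaker D14 peaks at these genes, 6 overlapped a sham peak and 3 a D56 peak.

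The RUNX sequence itself was found at complex I starts in about the same share as at all promoters. It was present in 6 of 42 promoter windows of 300 bases (14.3%, 6.72 to 27.8), namely those of Ndufa3, Ndufab1, Ndufaf1, Ndufb10, Ndufc2 and Ndufs7, against 15.1% of 17491 protein-coding promoters. Among all promoters it was present in 11.0% of those met by a D14 peak and in 19.9% of those met by no peak. The YY1 sequence was present in 8 of 42 (19%, 9.98 to 33.3) against 3.21% of all promoters and 4.89% of those met by a D14 peak. Its holders were Ndufa3, Ndufa9, Ndufaf8, Ndufb8, Ndufc1, Ndufs4, Ndufs6 and Ndufs7, and in each it began 11 to 39 bases downstream of the start. The NRF1 sequence was present in 3 (7.14%, 2.46 to 19), in Ndufa11, Ndufaf4 and Ndufaf5. This stood against 1.33% of all promoters and 2.35% of those met by a D14 peak. The ETS sequence was present in 6 (14.3%, 6.72 to 27.8), against 11.9% of all promoters and 19.7% of those met by a D14 peak. The median GC content was 59.2% in complex I promoters, 62.3% in promoters met by a D14 peak and 48.0% in those met by no peak. These are exact matches in fixed windows, described without a test, and the letters do not show which factor was bound.

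Most genes of the other respiratory complexes also had a peak. For complex II (succinate dehydrogenase and its assembly factors) the share was 8 of 8 genes in each library. Complex III genes had one in 11, 12 and 8 of 12 genes (sham, D14, D56), complex IV genes in 20, 21 and 18 of 27, and complex V (ATP synthase) genes in 15, 17 and 13 of 17. The 6 complex IV genes without a peak in any library were Cox7b and the isoform genes Cox4i2, Cox6a2, Cox7b2, Cox8b and Cox8c, several of them known from muscle or testis. The median D14 percentile of the strongest peak was 94.1, 86.4, 90.9 and 87.9 for complexes II to V, beside 90.8 for complex I. All 10 complex I assembly genes outside the Nduf name found in the table had peaks in each library, led by Tmem126b, with pileups of 104, 241 and 53, and Foxred1, with 120, 211 and 61. Genes of the mitochondrial ribosome had one in 70, 77 and 58 of 78 genes and those of the cytosolic ribosome in 82, 85 and 77 of 91. No list was tested against another.

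**Figure D4:**
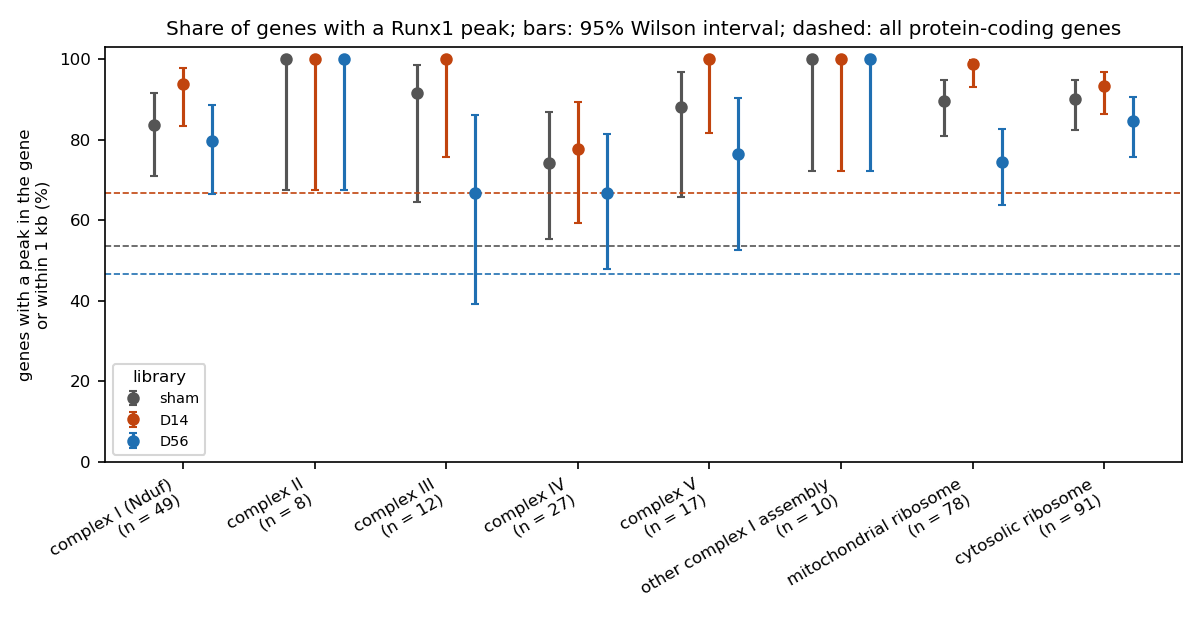
Share of genes with a Runx1 peak in the gene or within 1 kb, for complex I, the other respiratory complexes, other complex I assembly genes and both ribosomes, in sham, D14 and D56, with 95% Wilson intervals as bars and the share of all protein-coding genes as dashed lines (53.6%, 66.7% and 46.7%). Every group lies above the dashed line of its library, and the intervals of complex I (83.7%, 93.9% and 79.6%) overlap those of the other groups.

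As a check of the labelled cell type, fibroblast genes (Col1a1, Col1a2, Col3a1, Dcn, Lum, Pdgfra, Pdgfrb) had a sham peak in 6 of 7, a D14 peak in 6 and a D56 peak in 4, and none at Lum, against 53.6%, 66.7% and 46.7% of all protein-coding genes. The D56 share of 57.1% (25 to 84.2) was near that of all genes, and the fibroblast genes are long, with a median of 38200 bp. Markers of other cells were met less evenly, with the endothelial markers Pecam1, Cdh5 and Kdr at 1, 3 and 1 of 3 and the epithelial markers Epcam, Sftpc and Cdh1 at 1, 2 and 0 of 3. Leukocyte markers (Ptprc, Cd68, Cd3e) were met at 1, 2 and 0 of 3, smooth muscle markers (Myh11, Cnn1) at 1, 2 and 0 of 2, and mesothelial markers (Msln, Upk3b) at none. Binding at a gene does not measure its expression, so these counts check the label only loosely, and the part of other cells in the complex I counts was not tested.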

How the data were processed

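The data are 3 Runx1 ChIP libraries, each with its input, analysed through 1 deposited peak list per ChIP library. The submitters' processing notes name BWA, SAMtools, MACS2 and build mm10. Peak calling ran in MACS 2.0.10.20120913 at a q-value cutoff of 0.01, per the file headers, separately for each library with its input as control and the deeper of the pair scaled down. The deposited lists hold, as made by the authors, the pileup (a signal at the summit), the fold enrichment (a ratio to the local background) and p-value and q-value, both as −log10. Input depths per the file headers were 39609538 (sham), 49312043 (D14) and 19949187 (D56) tags, the last giving the thinnest background.

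Autosomal, X and Y peaks were joined to RefSeq genes (GRCm38.p6) with Python 3.11.15 and pandas 2.3.3. Strand and promoter sequence came from the RefSeq promoter table, taking the window nearest to the gene's annotated start. The gene table gives no exons. Touching peaks of the 3 lists were merged into regions to compare ranks. The joining of peaks to genes and the overlap rule were tested on simulated peaks placed at annotated genes. The complex I genes were named, except for 1 that is counted but not reported here, with coordinates for the 3 highest and 3 lowest per library, for those with a peak in no library or 1, and for those with a peak at D14 and D56 alone; other lists give up to 3 genes by D14 rank. Genes named outside this rule were chosen after their values were seen. The genes and lists were chosen with earlier results of these data known. Alternatives were other flanks, thresholds, list lengths, gene assignments, overlap rules and ranking values; differences of ranks by fold or p were added after seeing the data.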

Additional observations from a re-analysis of the deposited data

Results flagged for a closer look

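Peaks on the mitochondrial chromosome, which carries the 7 complex I genes ND1 to ND6 and ND4L, were left out of the counts above. The sham list held 7 such peaks, with folds of 1.13 to 1.34 and pileups of 2125 to 3705, and met ND4 and ND5. The D14 list held 15, with folds of 1.37 to 2.59 and pileups of 1838 to 3957, and met ND1, ND2, ND4, ND5 and ND6, while the D56 list held 0. These were singled out because they are signal outside the main measurement that was called above the input. The lowest folds elsewhere were 2.03 in sham and 1.57 at D14.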

How the results depend on the processing

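Under 57 alternatives to the counts, percentiles and shares, 52 values stayed within 1.5 times the main count or within its interval, and 5 moved. Over the regions shared by all libraries, the median percentile of the strongest peak was 65.7 in sham and 68.3 at D14, and over lists of equal length it was 67.5 at D14; fewer weak peaks were ranked there by construction. The share of D14 peaks at complex I genes with a D56 overlap was 38.3% with a reciprocal overlap of 50% and 93.2% between lists of equal length. The number of genes with a peak ranged from 29 to 42 in sham, 36 to 47 at D14, 29 to 41 at D56 and 25 to 39 in all 3 libraries, lowest by nearest gene end, with a fold of 5 or more giving the same 29 in sham. These all lay within the 1.5-fold limit, which is wide for counts out of 49. So did the 18 of 36 genes ranked higher at D56 than in sham by fold, against 26 by pileup. Their median difference by fold was 0.0218 points, against 0.732 over all shared regions. A count that stayed can therefore still change the reading. No paired analysis was possible because each condition has 1 library. How far depth limits the absent calls was not tested; the input of the D56 library was the smallest and its ChIP depth near that of sham.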

Other observations

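Genes for regulators of respiratory genes were also met by Runx1 peaks. All 10 had one in sham and at D14, and 8 had one at D56, against 53.6%, 66.7% and 46.7% of all protein-coding genes. Their median length is 28000 bp. Esrra, an orphan nuclear receptor of oxidative metabolism, had strongest pileups of 109, 173 and 50 (sham, D14, D56), and Tfam, which packages mitochondrial DNA, 70, 166 and 37. Tfb2m, a mitochondrial transcription factor gene, had 111, 187 and 49, and Yy1 90, 170 and 47. Gabpa, an ETS-family factor gene, shares its peak with the complex V gene Atp5j, at 84, 166 and 35. Ppargc1a, the coactivator of mitochondrial biogenesis, had 1 peak in sham, with a pileup of 19, 14 peaks at D14, the highest at 86, and 0 at D56. Its relative Ppargc1b had 1, 8 and 2 peaks. Both genes are far longer than the median, Ppargc1a at 5:51454249 to 52115853 and Ppargc1b at 18:61291445 to 61400756. The D14 list is also the longest, with 56316 peaks against 25052 in sham and 15009 at D56. The part of gene length and list length in these peak counts was not tested. Nrf1, the gene of the NRF1 factor, had lower pileups of 33, 79 and 18, and Gabpb1, the partner of Gabpa, had 40 and 58 and no peak at D56. Pprc1, a related coactivator gene, had 89, 95 and 24. The genes other than Tfb2m, Esrra and Yy1 were named after their values had been seen.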
